A study of Rattus norvegicus with 18 samples.

Results

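The NR4A receptors are 3 of the 17312 genes in the deposited expression table: Nr4a1 (Nur77, also NGFI-B), Nr4a2 (Nurr1) and Nr4a3 (NOR-1). They were found by their symbol, and all 3 had an estimate in every group. The cells were neonatal rat ventricular myocytes, a primary culture of heart muscle cells from the ventricles of day 2 Sprague-Dawley pups, kept without serum from 24 h before pretreatment began. They were pretreated for 24 h with vehicle or with SR9009, a synthetic agonist of the repressors REV-ERBα and REV-ERBβ. They then received phenylephrine (PE), an α1-adrenergic agonist that makes cardiomyocytes hypertrophic, for 0, 4 or 48 h. This gave 6 groups of 3 libraries (vehicle at 0, 4 and 48 h, and SR9009 at 0, 4 and 48 h), 18 in all. The same rat strain, serum-free medium and 24 h pretreatment were common to every group, and no group was kept for 4 or 48 h without PE, so PE and time in culture cannot be told apart.

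NR4A proteins are orphan nuclear receptors. Their ligand pocket is closed, so their activity is set largely by how much protein is made, and their genes are immediate early genes that calcium, cyclic AMP and adrenergic signals switch on for a short time. As monomers they bind a DNA element called the NBRE; Nr4a1 and Nr4a2 can also pair with retinoid X receptors (RXR), whereas Nr4a3 is not known to do so. In striated muscle the family is known for the control of glucose and oxidative metabolism after β-adrenergic stimulation or exercise.

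On the rn6 build used for the table, Nr4a1 lies at chr7:142912309-142920215 (7907 bases), Nr4a2 at chr3:43111936-43117406 (5471 bases) and Nr4a3 at chr5:63781801-63821639 (39839 bases). Each locus is the whole gene, exons and introns together. None of the 3 overlaps another gene of the table, and the nearest listed gene is Atg101, 9201 bases from Nr4a1. The RefSeq promoter table used here (build GRCr8) held Nr4a1 and Nr4a2. The 250 bases before the start of Nr4a1, the member with the highest level in every group, are shown because CREB, a factor activated by cyclic AMP and calcium, is a known regulator of this gene through elements that carry the letters CGTCA. Those letters are in capitals (plus strand, GRCr8, chr7:134259888-134260137):
Nr4a1: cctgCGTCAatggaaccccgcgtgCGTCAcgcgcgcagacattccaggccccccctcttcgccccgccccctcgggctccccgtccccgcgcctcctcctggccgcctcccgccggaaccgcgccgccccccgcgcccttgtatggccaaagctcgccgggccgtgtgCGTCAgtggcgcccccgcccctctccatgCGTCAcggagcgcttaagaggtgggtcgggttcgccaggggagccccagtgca

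This window held 4 matches to TGACG or its reverse complement CGTCA, which begin 246, 226, 82 and 53 bases before the start. Of 33469 rat promoter windows of 250 bases, 18.2% held at least 1 such match and 0.173% held 4 or more. Each of the 4 is part of the longer word TGCGTCA, present in 1.66% of the windows; this word was searched after the sequence had been seen. The full palindrome TGACGTCA (1.59% of windows), the NBRE AAAGGTCA (1.24%) and the nuclear receptor core AGGTCA (14.1%), which is contained in the NBRE, had no match on either strand. G and C made up 74.8% of the window, a share reached by 3.59% of windows, and every match contains a CG pair. The length from this start to the end of the gene, 7907 bases, equals that of the rn6 locus. The Nr4a2 window (52.0% G and C) held 1 match to TGACG, 8 bases before its start, and none to the other words. For Nr4a2 the length from RefSeq start to gene end is 6149 bases against 5471 in rn6, so the window may not begin at the start that was counted. The matches describe letters only.

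Values are FPKM, read fragments scaled by transcript length and by mapped fragments. The authors gave each gene 1 FPKM per group, made from its 3 libraries, and confidence bounds around it at a level not given in the sources used here. Spread between libraries is thus not shown, groups could not be tested against each other, and nothing shows whether the libraries came from separate cultures. Differences are of log2(FPKM + 1), which understates the change of low genes, and the range after each is the widest that the bounds allow. A gene met the size rule when the difference was at least 1 (2-fold) and the range excluded 0; this is a description. Of the 17312 genes, the 10545 with a mean of at least 1 FPKM were compared, and all 3 members passed that filter. The groups' FPKM summed to between 609018 and 710198. Depth is unknown. For genes of at least 5 FPKM the bounds lay, at the median, between 14.8% and 15.0% of the value away from it. The cell type label was checked: of 10 cardiomyocyte markers 9 were in the table, none was at 0 in any group, and the highest reached 6272 FPKM, while no endothelial marker exceeded 5.96 FPKM. Fibroblast markers were also high, up to 817 FPKM for Col1a1 and 737 for Col3a1, both in vehicle at 0 h. Myh6 had no estimate in 3 of the groups.

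In vehicle, PE was followed at 4 h by much higher Nr4a1 and Nr4a3 and by no comparable difference in Nr4a2. Nr4a1, the family member most often studied as a stress-induced receptor, stood at 4.36 FPKM (bounds 3.37 to 5.35) at 0 h, 52.5 (45.0 to 60.1) at 4 h and 10.4 (8.70 to 12.2) at 48 h. The 3 sets of bounds did not overlap, with 4 h the highest and 0 h the lowest. The difference at 4 h was 3.32 (2.86 to 3.81), a ratio of 12.1 (8.41 to 17.8). Nr4a3, known as an early response gene in vascular and muscle cells, stood at 0.787 FPKM (0.498 to 1.08), 18.7 (16.0 to 21.4) and 4.07 (3.34 to 4.81) at the same times. Its order over time was that of Nr4a1, again without overlap of bounds. The difference was 3.46 (3.03 to 3.90), and the FPKM ratio, 23.8 (14.9 to 43.0), had a range that overlapped that of Nr4a1. Nr4a2, best known for its role in dopaminergic neurons, stood at 1.92 FPKM (1.51 to 2.32), 2.34 (1.73 to 2.94) and 1.87 (1.34 to 2.40). All 3 of its bounds overlapped, and its difference at 4 h was 0.19 (-0.28 to 0.65).

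**Figure D1:**
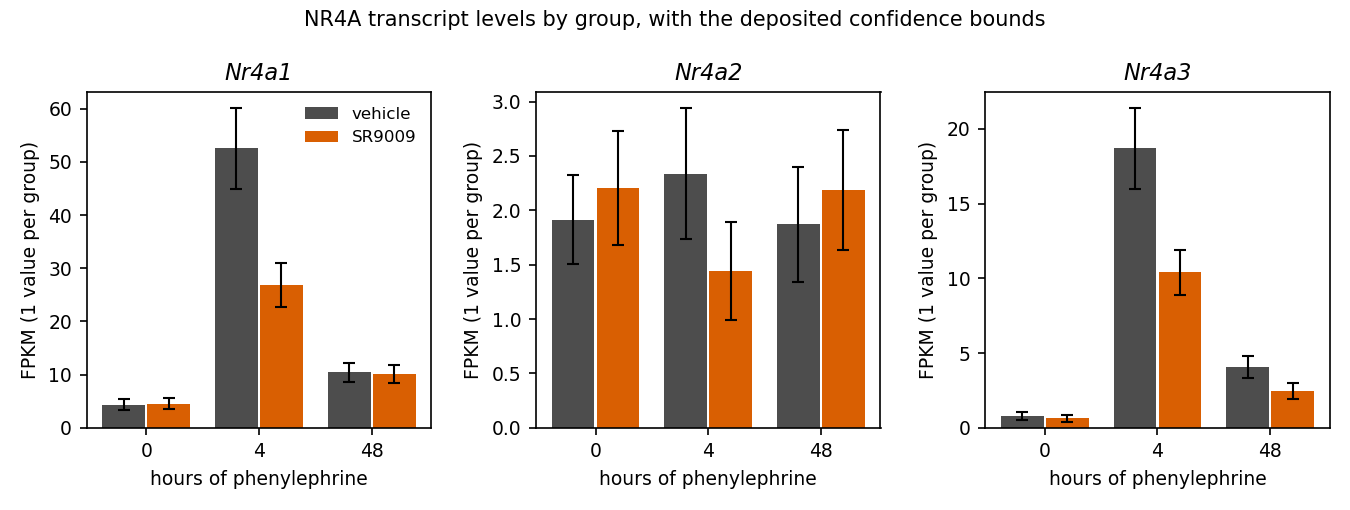
FPKM of Nr4a1, Nr4a2 and Nr4a3 (vertical axes, 1 scale per gene, from 0) against hours of phenylephrine, for vehicle (grey) and SR9009 (orange). Bars are the authors' value for a group of 3 libraries and error lines are the deposited confidence bounds; the bars of Nr4a1 and Nr4a3 are tallest at 4 h in both arms, and the 4 h bar is lower with SR9009.

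Of the 3 members 2 met the size rule as higher at 4 h, against 2.75% of the 10418 genes compared. Nr4a3 had the fifth and Nr4a1 the sixth largest difference of all these genes (ranks 5 and 6). At 48 h both were still above 0 h, Nr4a1 by 1.09 (0.61 to 1.59) and Nr4a3 by 1.51 (1.07 to 1.95), where 4.87% of 10416 genes were higher by the rule. With FPKM rescaled to equal sums Nr4a1 was at 0.90 and no longer met it. From 4 to 48 h both were lower, Nr4a1 by -2.23 (-2.66 to -1.80) and Nr4a3 by -1.96 (-2.37 to -1.55), and 2.37% of 10415 genes were lower by the rule. Of the increase in FPKM between 0 and 4 h, 12.6% was left at 48 h for Nr4a1 and 18.4% for Nr4a3. The 48 h comparisons share groups with the 4 h comparison and are not independent of it. Nr4a2 differed by -0.02 (-0.51 to 0.44) between 48 and 0 h, a sign that turned to 0.16 with quantile normalization.

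Beside these values, the summed FPKM of cell type markers also differed between the times. The 8 cardiomyocyte markers with an estimate in every group summed to 15518 FPKM at 0 h, 22449 at 4 h and 23260 at 48 h in vehicle. The 10 fibroblast markers, of which Col1a2 was listed at 0 in every group, summed to 2095, 1225 and 1333. At 48 h against 0 h all 9 fibroblast markers compared were below 0, with a median of -1.24, and 6 were lower by the rule (3.96% of all genes). From 4 to 48 h 4 of them were lower by the rule (2.37% of all genes) and 3 were above 0. For the 9 genes listed as smooth muscle markers the sums were 2142, 2659 and 4647. Des alone stood at 712, 1215 and 2706 FPKM, and whether it marks smooth muscle rather than heart muscle cells here was not tested. At 4 h against 0 h 6 of the 9 were below 0, with a median of -0.53. By the rule 1 was higher (2.75% of all genes) and 0 lower (2.32%). At 48 h against 0 h 4 of these 9 were higher by the rule (4.87% of all genes) and 1 was lower (3.96%). Their median was 0.003, and 4 were below 0, among them Myh11, at 22.1 FPKM at 0 h and 11.6 at 48 h. The 9 macrophage markers summed to 43.7, 45.0 and 18.7, and the 8 endothelial markers to 19.8, 21.0 and 12.4. Their part in the NR4A differences was not tested, and in bulk RNA a changed number of cells of a type and a changed level per cell cannot be told apart.

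After SR9009 pretreatment, PE was again followed by higher Nr4a1 and Nr4a3, with lower peaks. Nr4a1 stood at 4.55 FPKM (3.54 to 5.56) at 0 h, 26.8 (22.7 to 30.9) at 4 h and 10.2 (8.49 to 11.8) at 48 h. The bounds at the 3 times did not overlap. Nr4a3 stood at 0.630 FPKM (0.373 to 0.888), 10.4 (8.89 to 11.9) and 2.48 (1.95 to 3.01). Here too the 3 times were apart, in the same order. Nr4a2 stood at 2.21 FPKM (1.68 to 2.73), 1.44 (0.993 to 1.90) and 2.19 (1.64 to 2.74), with all bounds overlapping. Within this arm the 4 h difference was 2.32 (1.85 to 2.81) for Nr4a1, 2.81 (2.39 to 3.23) for Nr4a3 and -0.39 (-0.90 to 0.11) for Nr4a2. The first 2 met the rule, against 1.83% of genes as higher, and ranked 12 and 7 of 10408. At 48 h against 0 h the differences were 1.01 (0.53 to 1.50) for Nr4a1 and 1.09 (0.64 to 1.55) for Nr4a3, where 1.26% of genes were higher. With FPKM rescaled to equal sums Nr4a1 was at 0.92. From 4 to 48 h Nr4a1 differed by -1.32 (-1.75 to -0.89) and Nr4a3 by -1.71 (-2.13 to -1.30), where 2.00% of genes were lower. The share of the 4 h increase left at 48 h was 25.2% for Nr4a1 and 18.9% for Nr4a3. Marker sums moved in this arm as well. At 0, 4 and 48 h the 8 cardiomyocyte markers summed to 10880, 18138 and 22507 FPKM. Of these, 5 of 8 were higher by the rule at 48 h, against 1.26% of all genes. The fibroblast markers summed to 1851, 940 and 1319, with 4 of 9 lower by the rule at 4 h, against 276 of all 10408 genes. The sums were 1911, 1719 and 2118 for smooth muscle, 12.9, 12.6 and 17.6 for macrophage and 21.9, 20.6 and 13.5 for endothelial markers. Among smooth muscle markers Des went from 638 FPKM at 0 h to 1281 at 48 h, while 5 of 9 were lower. Among macrophage markers Cd74 stood at 3.46, 3.42 and 9.77 FPKM, while 5 of the 7 that passed the filter were lower at 48 h than at 0 h. The part of the markers in the NR4A differences was not tested here either.

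The next comparison set the SR9009 arm against the vehicle arm at each time. Before PE no member differed between the arms beyond its bounds. The differences of SR9009 from vehicle at 0 h were 0.05 (-0.48 to 0.59) for Nr4a1, 0.14 (-0.31 to 0.57) for Nr4a2 and -0.13 (-0.60 to 0.33) for Nr4a3. No member met the size rule, which 1.07% of 10415 genes did in either direction. Bounds that did not overlap were found for 9.84% of genes in either direction. On this scale the ranges leave room for differences of up to 0.59 upward and 0.60 downward, which these data could not show. For Nr4a3, whose levels were below 1 FPKM, the room is larger without the added 1. Its FPKM ratio of SR9009 to vehicle was 0.80 (0.35 to 1.78). With a pseudocount of 0.1 its difference was -0.28 (-1.31 to 0.72).

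At 4 h of PE the bounds of the 2 arms were apart for Nr4a1 and Nr4a3, with SR9009 the lower. Nr4a1 was 1.96-fold (1.45 to 2.65) lower with SR9009, a difference of -0.95 (-1.37 to -0.53). Nr4a3 was 1.80-fold (1.34 to 2.41) lower, a difference of -0.79 (-1.18 to -0.39). Neither reached the size rule, which 1.05% of 10412 genes met as lower, whereas bounds that did not overlap, with SR9009 lower, were found for 10.4% of genes. The difference of Nr4a1 was the 144th most negative of all genes and that of Nr4a3 was number 272. For Nr4a1 the difference lay between -0.97 and -0.86 over the alternative settings tried. Nr4a2 differed by -0.45 (-0.98 to 0.08), and its bounds overlapped. In FPKM, the increase of Nr4a1 from 0 to 4 h was 48.2 (39.6 to 56.8) in vehicle and 22.2 (17.1 to 27.4) with SR9009, or 46.2% (30.2 to 69.1) of it. For Nr4a3 the increases were 17.9 (14.9 to 20.9) and 9.78 (8.01 to 11.6), or 54.6% (38.3 to 77.5). Of these increases, the bounds in the 2 arms did not overlap for either gene.

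**Figure D2:**
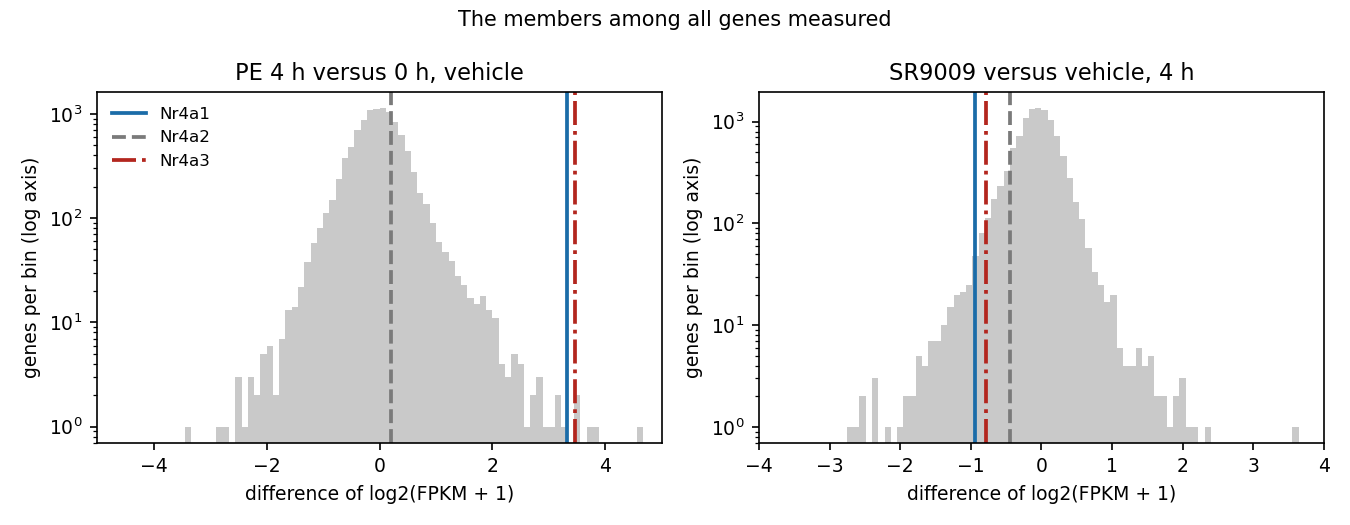
Number of genes (vertical, log axis) by difference of log2(FPKM + 1) (horizontal), for 4 h of phenylephrine against 0 h in vehicle (left) and SR9009 against vehicle at 4 h (right). Vertical lines mark Nr4a1, Nr4a2 and Nr4a3; on the left 3.32 and 3.46 lie at the far right of all genes, and on the right -0.95, -0.79 and -0.45 lie on the lower side without being among the extremes.

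Cell type markers also differed between the arms at 4 h. All 7 macrophage markers that passed the filter on low values were lower with SR9009. Of these, 4 met the size rule, as did 1.05% of all genes as lower. The whole list of 9 summed to 12.6 FPKM against 45.0 in vehicle, with none at 0. At 0 h, where no NR4A member differed beyond its bounds, the same list summed to 12.9 with SR9009 and 43.7 with vehicle. The fibroblast sum at 4 h was 940 against 1225, that of smooth muscle markers 1719 against 2659, that of endothelial markers 20.6 against 21.0 and that of the 8 cardiomyocyte markers 18138 against 22449. Their part in the lower Nr4a1 and Nr4a3 was not tested.

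At 48 h of PE the bounds of the arms were apart for Nr4a3 and overlapped for Nr4a1 and Nr4a2. Nr4a1 was at 10.4 FPKM with vehicle and 10.2 with SR9009, a difference of -0.04 (-0.47 to 0.40) that took the opposite sign with each of the 3 other scalings, up to 0.07. Nr4a3 was at 4.07 and 2.48 FPKM, a ratio of 1.64 (1.11 to 2.47) and a difference of -0.54 (-0.98 to -0.11). Its bounds did not overlap, as was the case, with SR9009 lower, for 17.3% of 10408 genes. Nr4a2 differed by 0.15 (-0.37 to 0.68). Whether the difference in Nr4a3 is unlike that in Nr4a1 was not tested, and their ranges overlap. At the same time the smooth muscle markers summed to 2118 FPKM with SR9009 and 4647 with vehicle, with Des alone at 1281 and 2706. Of the 9, 3 were lower by the rule, against 4.55% of all genes. Another 3 were above 0, among them Smtn at 24.0 against 14.5 FPKM. The fibroblast markers summed to 1319 and 1333. Of 9 compared, Dcn (1.20, 0.80 to 1.60) and Lum (1.46, 1.10 to 1.83) were higher by the rule, as were 2.33% of all genes. A further 3 of the 9 were below 0, among them Col1a1 at 509 against 701 FPKM. The sums were 22507 and 23260 for the 8 cardiomyocyte markers, 17.6 and 18.7 for macrophage markers, and 13.5 and 12.4 for endothelial markers. Their part in the lower Nr4a3 was not tested.

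The interaction, the PE difference with SR9009 minus that with vehicle, asks whether the response itself depended on the pretreatment. For 4 h against 0 h it was -0.997 (-1.96 to -0.04) for Nr4a1, -0.66 (-1.51 to 0.20) for Nr4a3 and -0.59 (-1.56 to 0.39) for Nr4a2. The range for Nr4a1 excluded 0, which 0.731% of 10394 genes did on the lower side, and its value was the 65th most negative. It no longer excluded 0 with a pseudocount of 0.1 (-1.03, -2.11 to 0.04) or with FPKM rescaled to equal sums (-0.93, -1.90 to 0.03). For 48 h against 0 h the interaction was -0.09 (-1.06 to 0.89) for Nr4a1, 0.01 (-0.94 to 0.98) for Nr4a2 and -0.41 (-1.31 to 0.48) for Nr4a3, where 13.2% of genes had a range that excluded 0 in either direction. For 48 h against 4 h it was 0.91 (0.05 to 1.77) for Nr4a1, where 5.80% of genes had a range above 0, 0.60 (-0.45 to 1.66) for Nr4a2 and 0.24 (-0.58 to 1.06) for Nr4a3. The 4 h groups enter both this interaction and the first.

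**Figure D3:**
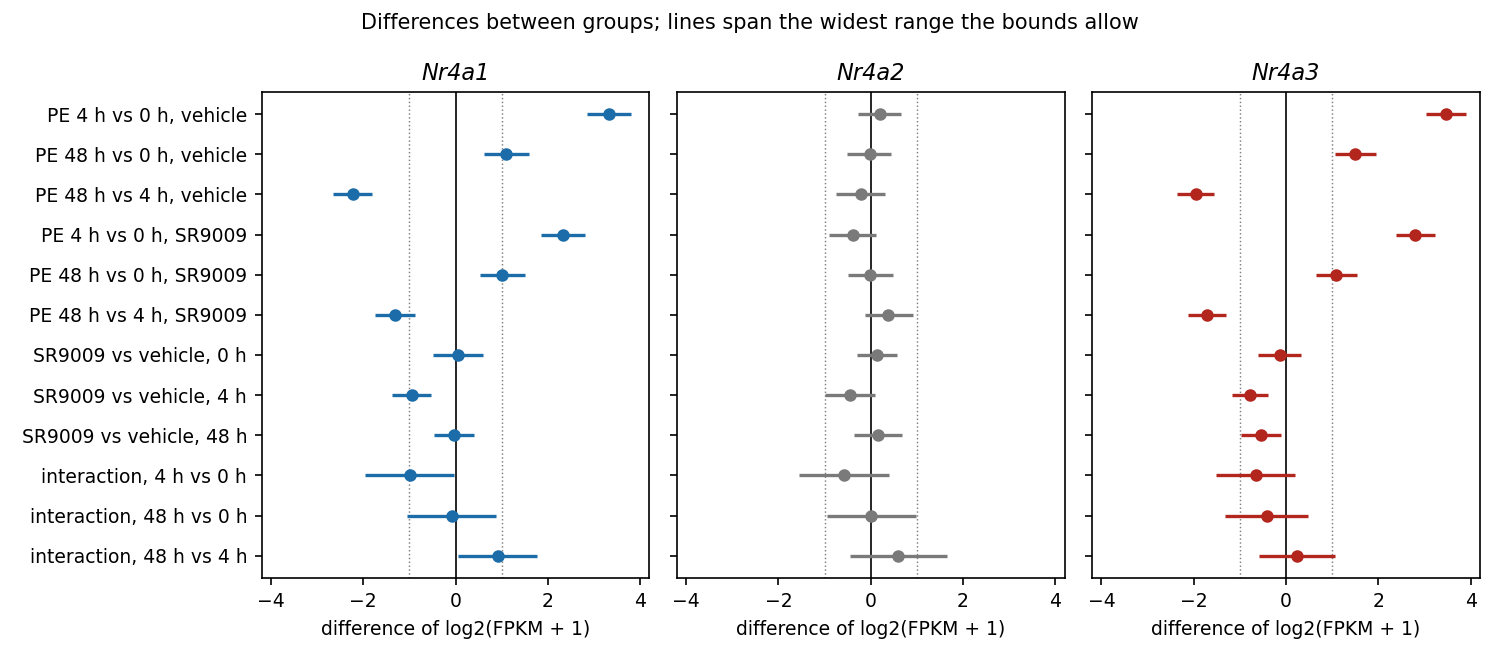
Differences of log2(FPKM + 1) (horizontal) for the 12 comparisons (vertical; PE is phenylephrine) in Nr4a1, Nr4a2 and Nr4a3. Points are the differences, lines the widest range that the bounds allow, dotted lines -1 and 1; every line of Nr4a2 crosses 0, while those of Nr4a1 and Nr4a3 for time within an arm do not.

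Since FPKM is per length, the levels of the 3 genes can be set side by side. Nr4a1 had the highest level in all 6 groups, with bounds apart from those of the next member each time. Below it, the order changed with PE. At 0 h Nr4a2 was 2.43 times Nr4a3 in vehicle and 3.5 times with SR9009, whereas at 4 h Nr4a3 was 8.0 and 7.21 times Nr4a2. At 48 h Nr4a3 was 2.18 times Nr4a2 in vehicle, but only 1.13 times with SR9009, where their bounds overlapped. The summed FPKM of the family was 7.06 at 0 h, 73.6 at 4 h and 16.4 at 48 h in vehicle, and 7.39, 38.7 and 14.8 with SR9009. The part of Nr4a1 in that sum lay between 61.6% and 71.4% in the 6 groups. That of Nr4a3 went from 11.1% (6.10 to 18.1) at 0 h to 25.4% (20.2 to 31.4) at 4 h in vehicle, and that of Nr4a2 from 27.1% (19.0 to 37.5) to 3.18% (2.08 to 4.60). At 48 h the part of Nr4a3 was 24.9% (18.7 to 32.4) in vehicle and 16.7% (11.8 to 22.9) with SR9009, with overlapping bounds.

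Over the groups, the order of Nr4a1 levels was vehicle at 4 h, SR9009 at 4 h, both arms at 48 h and both arms at 0 h, where the arms at 48 h and at 0 h overlapped in their bounds. For Nr4a3 the order was the same with vehicle above SR9009 at each time, and only the 0 h groups overlapped. No neighbouring pair of groups was apart for Nr4a2, whose levels ran from 1.44 to 2.34 FPKM. The bounds were also widest, in relation to the value, where levels were low. They lay 14.4% from the value for Nr4a1 and 14.5% for Nr4a3 in vehicle at 4 h. For Nr4a3 at 0 h they lay 40.8% from the value with SR9009 and 36.7% in vehicle, and for Nr4a2 with SR9009 at 4 h 31.3%.

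Among nuclear receptor genes, 41 others of a list of 45 were in the table and 28 passed the filter. Nr4a1 ranked 24th of the 44 receptors by FPKM in vehicle at 0 h, 4th at 4 h and 15th at 48 h, and Nr4a3 ranked 31st, 10th and 23rd. Nr4a2 stayed between rank 25 and 28 in all 6 groups. None of the 28 other receptors met the size rule as higher after 4 h of PE in vehicle, which 2.75% of all genes did. By the rule 5 were lower, where 2.32% of all genes were lower, and the median was -0.31 against -0.02 for all genes. The lower ones were the RXR genes Rxra (-1.22, -1.66 to -0.77) and Rxrg (-1.0, -1.44 to -0.57), the corepressor-like receptor Nr0b2 (-1.31), the thyroid hormone receptor Thrb (-1.20) and Nr2f2 (-1.13). The receptors with the highest mean level, the glucocorticoid receptor Nr3c1 (-0.06), Nr2f6 (-0.03) and the metabolic regulator Esrra (0.06), did not meet the rule. After 48 h in vehicle the same 5 were lower (3.96% of all genes) and none was higher (4.87%), with Rxrg at -2.86 (-3.42 to -2.34). With SR9009 none of the 28 differed by the rule from vehicle at 0 h, where 1.07% of all genes did in either direction. At 4 h none did either, where 0.499% of all genes were higher and 1.05% lower. At 48 h 3 were higher (2.33% of all genes), Rxrg by 2.42 (1.91 to 2.97), Rxra by 1.10 (0.65 to 1.56) and Nr0b2 by 1.09 (0.49 to 1.71). The median over the 28 at that time was 0.14, against -0.04 for all genes.

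**Figure D4:**
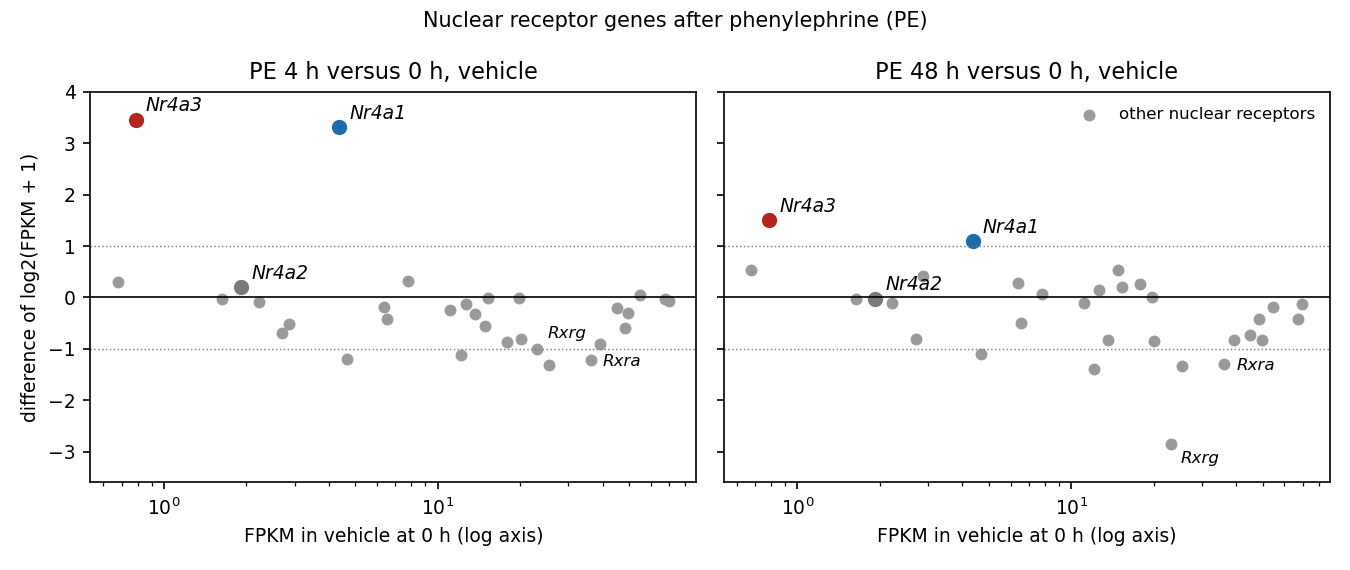
Difference of log2(FPKM + 1) between phenylephrine (PE) and 0 h in vehicle (vertical) against the vehicle level at 0 h (horizontal, FPKM, log axis), at 4 h (left) and 48 h (right), for the 3 NR4A genes (coloured and dark grey, named) and 28 other nuclear receptors (light grey). Nr4a1 and Nr4a3 are the only points above the upper dotted line at 1 at either time; Rxrg is the lowest point at 48 h.

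RXR proteins are the partners of Nr4a1 and Nr4a2, and coregulators are shared by many receptors. Of 10 such genes that passed the filter, of 11 in the list, 0 were higher and 2 lower at 4 h of PE in vehicle, the 2 RXR genes above, where 2.75% of all genes were higher and 2.32% lower. Their median was -0.31. Rxrb, the third RXR gene, stood at 20.1 FPKM at 0 h and 11.1 at 4 h in vehicle and did not meet the rule (-0.81). At 4 h none of the 10 differed by the rule between SR9009 and vehicle, where 0.499% of all genes were higher and 1.05% lower. Their median was then -0.10 against -0.06 for all genes.

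In the lists of CREB and MEF2 pathway genes, a few members were higher at 4 h, as Nr4a1 and Nr4a3 were, and most did not meet the rule. Whether any of them acts on the NR4A genes was not tested. In the list of CREB, its CRTC coactivators and the salt-inducible kinases that restrain them, 11 of 14 genes passed the filter, and 2 were higher at 4 h in vehicle, against 2.75% of all genes, with 0 lower. Sik1, a kinase made in response to cyclic AMP and calcium, went from 10.9 to 160 FPKM, a difference of 3.77 (3.33 to 4.20). Crem, whose short products repress CREB targets, went from 5.30 to 21.4 FPKM, a difference of 1.83 (1.51 to 2.14). The list's median was 0.20. With SR9009 at 4 h no gene of this list met the rule against vehicle, where 0.499% of all genes were higher and 1.05% lower. Of the 11, 9 were below 0, with a median of -0.29. Sik1 was at -0.73 (-1.16 to -0.30) and Crem at -0.48 (-0.85 to -0.12). In the list of MEF2 factors, class IIa histone deacetylases, calcineurin, NFAT and kinase genes, 16 of 20 passed, and 2 were higher at 4 h in vehicle, against the same 2.75%, and 0 lower. These were the deacetylase gene Hdac5 (1.47, 1.06 to 1.89), whose protein represses MEF2 targets, and the calcineurin regulator Rcan1 (2.46, 2.02 to 2.89). The median was -0.02, as for all genes. None of the 16 met the rule for SR9009 at 4 h (median -0.11), against the same shares of all genes. Rcan1 was lower by the rule at 48 h, at -1.21 (-1.64 to -0.78), as were 4.55% of all genes.

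Of 32 immediate early genes, the class to which the NR4A genes belong, 30 passed the filter. At 4 h in vehicle 6 of 30 were higher, against 2.75% of all genes, and 0 lower, with a median of 0.62. The AP-1 subunit gene Fos differed by 2.33 (1.89 to 2.80), the stress-induced factor gene Atf3 by 1.97 (1.56 to 2.41), the phosphatase gene Dusp2 by 1.95 (1.22 to 2.75) and the antiproliferative gene Btg2 by 1.84 (1.42 to 2.25), all below Nr4a1 and Nr4a3. At 48 h in vehicle 7 were higher, against 4.87% of all genes, and 0 lower, led by Atf3 at 2.52 and Dusp4 at 2.24. For Atf3 the 48 h level was thus no lower than that at 4 h, unlike Nr4a1 and Nr4a3. In the SR9009 arm 3 of the 30 were higher at 4 h, against 1.83% of all genes, and the median was 0.06. Against vehicle at 4 h, SR9009 gave values below 0 for 27 of 30, with a median of -0.37 against -0.06 for all genes, and only Atf3, at -1.16 (-1.54 to -0.79), met the rule, as did 1.05% of all genes as lower. At 48 h 6 were lower (4.55% of all genes), including Atf3 (-2.51), Myc (-2.09), Ptgs2 (-2.04) and Dusp4 (-1.43), and 1 was higher, Dusp5 (1.40). Nr4a1 had no such difference at that time.

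The genes whose profile over the 6 groups was most like that of a member were sought by Pearson's correlation of log2(FPKM + 1), among the genes (2219 for Nr4a1 and Nr4a3) with a range of at least 1 over the groups. For Nr4a3 they were Crem (r = 0.996), the ubiquitin hydrolase family genes Usp53 (0.994) and Usp46 (0.993), Fos (0.992) and Nr4a1 (0.990). For Nr4a1 they were Crem (0.992), Nr4a3 (0.990), Usp53 (0.986), Usp46 (0.983) and Fos (0.979). Crem stood at 5.30, 21.4 and 8.71 FPKM in vehicle and at 4.63, 15.0 and 7.24 with SR9009 at 0, 4 and 48 h. Fos stood at 8.04, 44.6 and 17.9 FPKM and at 8.51, 29.2 and 11.2. Usp53 went from 19.1 to 40.6 and 25.3 FPKM in vehicle, a smaller change than that of the receptors, and r does not measure size. These r values describe 6 group values that share their processing. By Spearman's correlation 1 of the 5 genes stayed among the closest for Nr4a1 and 3 for Nr4a3. In the 250 base promoter windows Crem held 2 matches to TGACG, Usp53 held 1 and Usp46 none, and no window was available for Fos. At least 1 match was held by 18.2% of all windows. The share that held 2 or more was not counted, so how common the count of Crem is cannot be said.

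**Figure D5:**
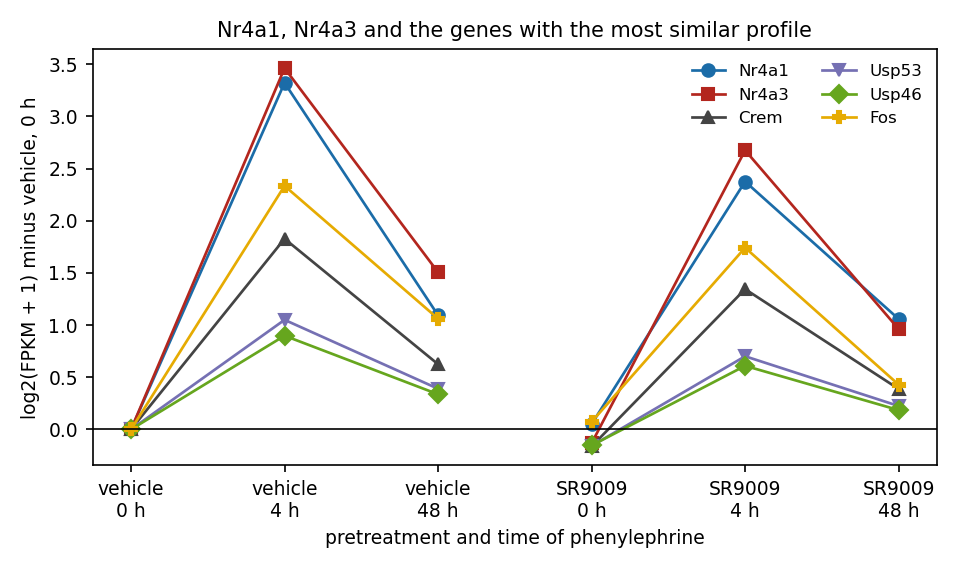
Level of Nr4a1, Nr4a3 and the 4 other genes closest to both in profile, as log2(FPKM + 1) minus the vehicle value at 0 h (vertical), in the 6 groups (horizontal; lines join the times within an arm). All 6 genes peak at 4 h in both arms, with a lower peak after SR9009; Nr4a1 and Nr4a3 have the highest peaks.

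The profile of Nr4a2 was unlike those of the other members, with r = -0.08 against Nr4a1 and -0.17 against Nr4a3 over the 6 groups. The genes closest to it were Rnf24 (r = 0.885), Mospd1 (0.861), Reg1a (0.784), Tnfaip8 (0.778) and Sspn (0.769). As all neighbouring Nr4a2 values overlapped in their bounds, these r values rest on differences within the bounds.

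Genes reported as NR4A targets in other settings were counted from lists drawn up for this purpose. Of 18 muscle metabolic genes 16 passed the filter. At 4 h in vehicle, when Nr4a1 and Nr4a3 were highest, 1 was higher (2.75% of all genes), the PGC-1β gene Ppargc1b (1.12, 0.73 to 1.50), and 1 lower (2.32% of all genes), the pyruvate dehydrogenase kinase gene Pdk4 (-1.50, -2.14 to -0.90). The median was 0.03. At 48 h in vehicle 0 were higher (4.87% of all genes) and 4 lower (3.96%), with a median of -0.39. The lower ones were the gluconeogenic gene Fbp2 (-1.16), the glycolytic genes Pfkm (-1.13) and Pgam2 (-1.08), and the fatty acid transporter gene Cd36 (-1.03). Against vehicle, SR9009 gave 0 genes past the rule at 4 h (median -0.25), where 0.499% of all genes were higher and 1.05% lower. At 48 h 2 were higher (2.33% of all genes), Pgam2 at 1.33 (0.92 to 1.73) and Pfkm at 1.07 (0.64 to 1.49), with a median of 0.41. Of 8 growth and survival genes, all of which passed, 0 were higher and 1 lower (2.32% of all genes) at 4 h in vehicle, the cell cycle factor gene E2f1 (-1.03). At 48 h 2 were higher (4.87% of all genes), the cyclin gene Ccnd1 (1.50) and E2f1 (1.05), and 1 lower (3.96%), the proapoptotic gene Bcl2l11 (-1.68, -3.30 to -0.37). With SR9009 at 4 h the osteopontin gene Spp1 was higher (2.09), as were 0.499% of all genes, and the adhesion gene Vcam1 lower (-1.0), as were 1.05%. Spp1 was already higher with SR9009 before PE, by 1.30 (0.88 to 1.71). At 48 h with SR9009 Bcl2l11 was higher (1.69, 0.01 to 3.46), as were 2.33% of all genes, and E2f1 lower (-1.27), as were 4.55%. At that time 7 of the 8 were below 0, and the median was -0.60.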

How the data were processed

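The 18 libraries were made with Illumina TruSeq stranded mRNA reagents, according to the protocols in the labels, and grouped by title. The authors deposited FPKM for 17312 genes, 1 value per gene and group of 3 libraries, with confidence bounds, per the file headers. The submitters' processing notes list FastQC, Trim Galore, TopHat, Cuffdiff and build rn6. Their versions, the scaling between libraries and the level of the bounds were not given in the sources used here. No values per library were used, so no test could be run, and the limma fit planned for values per library was not made.

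Values without an estimate (3 to 8 per group), listed zeros and the 172 gene and group values outside their own bounds entered no difference. Values were taken as log2(FPKM + 1), with a mean of at least 1 FPKM required, in Python 3.11.15 with pandas 2.3.3. Table starts were read as counted from 0, because 2074 gene lengths then equal RefSeq's, against 277 otherwise. Named genes are the members, the 5 most alike in profile, up to 4 genes per list and comparison past the size rule (further ones were named after their values were seen), and the 3 other nuclear receptors with the highest mean. The members and lists were chosen with earlier results of these data known. Alternatives were a pseudocount of 0.1, FPKM rescaled to equal sums, quantile normalization, median centring, bounds combined in quadrature, no filter on low values, and Spearman's correlation.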

Additional observations from a re-analysis of the deposited data

How the results depend on the processing

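No paired analysis was possible because the table holds 1 value per gene and group, and leaving out replicates was not run for the same reason. Of 180 alternative values for the 36 member differences, 176 lay inside the range of the bounds. The other 4 were Nr4a3 with a pseudocount of 0.1: 4.41 at 4 h and 2.23 at 48 h against 0 h in vehicle, and 3.85 and 1.82 with SR9009, all higher still. The size rule changed for 2, both Nr4a1 at 48 h against 0 h with FPKM rescaled to equal sums (0.90 in vehicle, 0.92 with SR9009). No difference whose range excluded 0 changed sign. With bounds in quadrature, which gives narrower ranges, the 4 h interaction of Nr4a3 (-0.66, -1.09 to -0.22) and of Nr4a2 (-0.59, -1.08 to -0.09) and the SR9009 difference of Nr4a2 at 4 h (-0.45, -0.83 to -0.07) excluded 0, as did Nr4a2 at 4 h against 0 h (-0.76 to -0.04) and 48 h against 4 h (0.02 to 0.76) with SR9009 and its interaction at 48 h against 4 h (0.07 to 1.13). Rescaling to equal sums shifted the median difference of all genes by -0.18 (4 h of PE in vehicle), -0.20 (48 h of PE in vehicle), -0.12 (4 h of PE with SR9009), 0.10 (SR9009 at 48 h) and 0.11 (interaction at 48 h against 0 h). Nr4a1 at 4 h in vehicle was then at 3.14 and Nr4a3 at 3.33. The split of higher against lower genes became 198 to 407 from 287 to 242 at 4 h in vehicle, 341 to 666 from 507 to 412 at 48 h in vehicle, 147 to 415 from 190 to 276 at 4 h against 0 h within the SR9009 arm, 341 to 391 from 243 to 474 for SR9009 at 48 h, 111 to 165 from 131 to 121 at 48 h against 0 h within the SR9009 arm, and 512 to 442 from 386 to 555 for that interaction. For SR9009 at 4 h the split of 52 to 109 became 68 to 91 with median centring and 61 to 79 with quantile normalization. Counts of genes past the size rule moved by more than 1.5 times in 8 of 144 cases. Beside the equal sums above, they were, with a pseudocount of 0.1, 383 lower genes at 4 h in vehicle and 441 with SR9009. Under that setting, genes higher at 48 h than 4 h with SR9009 were 391 against 259, and genes lower with SR9009 than vehicle were 97 against 59 at 0 h and 185 against 109 at 4 h. Of the 5 genes closest in profile, a pseudocount of 0.1 kept 4 for Nr4a1, 2 for Nr4a2 and 2 for Nr4a3, and Spearman's correlation kept 1, 0 and 3.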
